A study of Gallus gallus with 60 samples.

Results

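The LSL (Lohmann Selected Leghorn) hens of this study, 30 of 60 laying hens, were compared by the size of the group in which they had been kept. The sample titles placed 14 LSL hens in groups of 54 and 16 LSL hens in groups of 36, and all of these hens entered the comparison. The other 30 hens belonged to a second layer line, Lohmann Brown (LB), with 16 hens in groups of 54 and 14 hens in groups of 36, and are used here only beside the LSL values. Hens of all groups were 65 to 68 weeks old and had been housed in compartments of a small group system in which the floor space per hen did not depend on group size. Posterior cerebrum RNA of each hen was measured on 1 Affymetrix array of chicken genes. The deposited values are log2 signal levels after RMA normalisation, so a difference of 1 is a doubling. A compartment housed 1 line only and gave more than 1 of the sampled hens. As the labels give neither compartment nor tier, all hens were treated as separate samples. Group size was set by compartment, so p-values and intervals that take hens as independent can be too small and too narrow. The labels also do not give which hens had been scored as stressed, so this status could differ between the group sizes.

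Group size is a social condition. In larger groups a hen meets more flock mates, and the pecking order rests on recognising them. In birds social and housing stress acts through the hypothalamic release of corticotropin-releasing hormone and vasotocin, through adrenal corticosterone and through the glucocorticoid and mineralocorticoid receptors of the brain. The cerebrum holds pallium and striatum, whose neurons use glutamate, GABA, monoamine inputs and many neuropeptides, and in which the immediate early genes follow recent neuronal activity.

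No row of the array separated the LSL hens by group size at the threshold. Of 16317 rows above the limit for low values, 0 passed an adjusted p under 0.05 in limma (0% of the rows, smallest adjusted p = 0.999), and 528 rows (3.24%) had an unadjusted p under 0.05. Of those 528 rows, 227 were higher in groups of 54 (1.39% of all rows) and 301 were lower (1.84%). The t-test named in the study's methods also called 0 rows after Benjamini-Hochberg adjustment and had 554 at an unadjusted p under 0.05. Over all rows, 8152 had a higher mean in groups of 54 and 8165 a lower mean.

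The measured differences were small and their intervals were narrow for most rows. The median absolute difference was 0.042 on the log2 scale, or 1.03-fold, with a median standard error of 0.066. A difference under 1.2-fold was found for 16188 rows (99.2%). The 95% confidence interval of the difference lay wholly within 1.2-fold in either direction for 13004 rows (79.7%), within 1.5-fold for 16111 rows (98.7%) and within 2-fold for 16299 rows (99.9%). These intervals take hens as independent. With hen pairs, consecutive hen numbers such as 13 and 14 of the same group, as a random block (consensus correlation 0.34), the median standard error was 0.078 and the counts were 11785 rows (72.2%), 15947 rows (97.7%) and 16286 rows (99.8%). A difference of 1.5-fold or more as a point estimate was seen in 6 rows, and of 2-fold or more in 1 row.

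**Figure D1:**
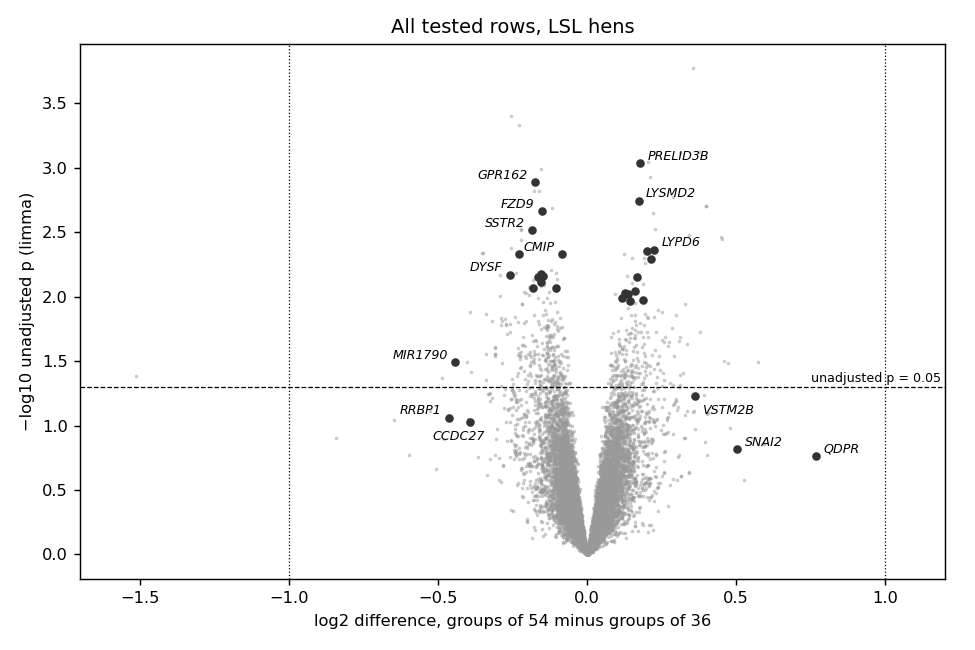
Each point is 1 of the 16317 tested rows in LSL hens. The horizontal axis is the mean log2 level in groups of 54 minus that in groups of 36, the vertical axis is −log10 of limma's unadjusted p, dotted lines mark 2-fold, the dashed line marks an unadjusted p of 0.05, and dark points are named rows. The named rows with the smallest p had differences well under 2-fold (PRELID3B at 0.18), the named rows QDPR at 0.77 and SNAI2 at 0.50 lie below the dashed line, and the leftmost point is a row with no gene name at -1.51 (unadjusted p = 0.041 in limma).

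The arrays of the study formed a set of 18 and a set of 42 along the first principal component left after the group means were removed. No label names this division, but it went with hen number in part. Both hens lay in 1 set in all 30 hen pairs. Among LSL hens the smaller set held numbers 1 to 4, 13, 14, 17, 18, 21 and 22, and every number from 23 on lay in the larger set. The cause of the division was not tested. In LSL the smaller set held 4 hens from groups of 54 and 6 from groups of 36, and the larger set held 10 and 10. The first principal component of the LSL hens took 26.5% of their variance. The array set accounted for 95.4% of that component and group size for 1.22% (permutation test of group size with 100000 resamples, two-sided, p = 0.54, adjusted p = 0.90 over 5 components). Over all rows group size took 2.85% of the variance between LSL hens, where 1 of 29 degrees of freedom is 3.45%, and the array set took 25.6%. The array set was cut from these same values, so its shares are large by construction. They cannot be weighed against those of group size, which the labels gave. With the array set as a block 0 rows passed and 804 had an unadjusted p under 0.05. Within the larger set these counts were 0 and 1062, and within the smaller set 0 and 854.

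The cerebrum label was set against defining markers. Of 8060 named genes on the array 7195 lay above the limit for low values, so a marker above it cannot decide whether the label is right. Markers of neurons (SNAP25, STMN2, NEFL, ENO2), astrocytes (AQP4, GJA1, GLUL), oligodendrocytes (MBP, SOX10) and microglia (CSF1R, C1QA, P2RY12, PTPRC) were all above the limit for low values where the array names them, as were those of pallium (TBR1, EMX2, NEUROD6, SLC17A6) and striatum (DRD1, ADORA2A, PENK, TAC1). The 4 choroid plexus markers, the 4 endothelial markers and the 3 erythrocyte markers that the array names were also above the limit, and of the meningeal markers LUM was below it. The longer marker lists used further on also held genes below it, among them GJB6 of astrocytes, MAL of oligodendrocytes, CX3CR1 of microglia, HEMGN, TAL1 and RHCE of erythrocytes, and KCNE2 and CAPSL of choroid plexus and ependyma.

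Among rows with 1 gene symbol, PRELID3B (SLMO2 in the array annotation), of the PRELI family of mitochondrial lipid transfer proteins, had the smallest p. Its log2 level ran from 8.54 through a median of 8.72 to 8.98 in groups of 54, and from 8.30 through 8.53 to 8.83 in groups of 36. The groups overlapped, although 14 of 14 hens from groups of 54 lay above the median of the groups of 36. The difference was 0.18 (95% interval 0.079 to 0.28, unadjusted p = 0.00092, adjusted p = 0.999 in limma), or 1.13-fold.

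LYSMD2, a LysM domain protein, ran from 7.29 through a median of 7.53 to 7.65 in groups of 54 and from 7.06 through 7.30 to 7.55 in groups of 36, a difference of 0.17 (standard error 0.051). LYPD6, a membrane-anchored modulator of Wnt and nicotinic receptor signalling, ran from 6.03 through 6.38 to 6.81 in groups of 54 and from 5.90 through 6.20 to 6.48 in groups of 36, a difference of 0.22 (standard error 0.073). Both genes overlapped between the group sizes, with 13 and 12 of 14 hens from groups of 54 above the median of the groups of 36. NUDT12, which hydrolyses NADH, differed by 0.21, GRAMD3 by 0.17 and GATAD1, a zinc finger protein that binds chromatin, by 0.16. The next rows were MED6, a subunit of the Mediator complex, at 0.19, STIM2, a calcium sensor of the endoplasmic reticulum, at 0.14, SLC45A2, a transporter of pigment cells, at 0.14, FAM84B at 0.13 and CCNY, cyclin Y, at 0.12. MIR1764, a microRNA gene whose row holds 1 probe set, differed by 0.20. In each of these 12 rows 10 to 14 of the 14 hens from groups of 54 lay above the median of the groups of 36. All adjusted p-values were 0.999.

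GPR162, an orphan G protein-coupled receptor, led the rows that were lower in groups of 54. It ran from 8.59 through a median of 8.87 to 9.07 in groups of 54, and from 8.87 through 9.04 to 9.27 in groups of 36, a difference of -0.17 (95% interval -0.28 to -0.074, unadjusted p = 0.0013, adjusted p = 0.999 in limma). The lowest hen of the groups of 36 lay just below the median of the groups of 54. FZD9, a frizzled receptor for Wnt ligands, ran from 6.70 through 7.05 to 7.14 in groups of 54 and from 6.87 through 7.17 to 7.31 in groups of 36, a difference of -0.15 (standard error 0.046). None of the 14 hens from groups of 54 exceeded the FZD9 median of the groups of 36, but the ranges overlapped. SSTR2, a somatostatin receptor that inhibits neurons, ran from 6.94 through 7.23 to 7.49 in groups of 54 and from 7.09 through 7.45 to 7.67 in groups of 36, a difference of -0.18 (standard error 0.057).

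CMIP, a signalling adaptor whose row holds 21 probe sets, had the narrowest distribution of the first 4 of these rows. Its levels ran from 8.89 through 9.02 to 9.13 in groups of 54 and from 9.05 through 9.08 to 9.22 in groups of 36, and the difference was -0.085 (standard error 0.028). All 16 hens from groups of 36 lay above the CMIP median of the groups of 54. FHL3, a LIM domain protein, differed by -0.23, DYSF, which acts in membrane repair, by -0.26, and NLGN3, a postsynaptic adhesion molecule of the neuroligin family, by -0.15. In DYSF hens 51, 52, 53 and 54 lay at 6.82, 6.85, 6.73 and 6.84. The other hens from groups of 54 lay between 7.15 and 7.76. NDUFV1, a core subunit of mitochondrial complex I, differed by -0.18, C10orf2, the mitochondrial DNA helicase, by -0.15, and RPL23, a protein of the large ribosomal subunit, by -0.11. LOC416055 (-0.16) and RABL2A (RABL2B in the array annotation), a small GTPase of cilia, at -0.16, completed the 12. NDUFV1 and RPL23 were also less variable in groups of 54, with SDs of 0.12 and 0.034 in groups of 54 (n = 14) and 0.22 and 0.12 in groups of 36 (n = 16). The test of spread described further on did not pass for either gene (adjusted p = 0.999 in limma).

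**Figure D2:**
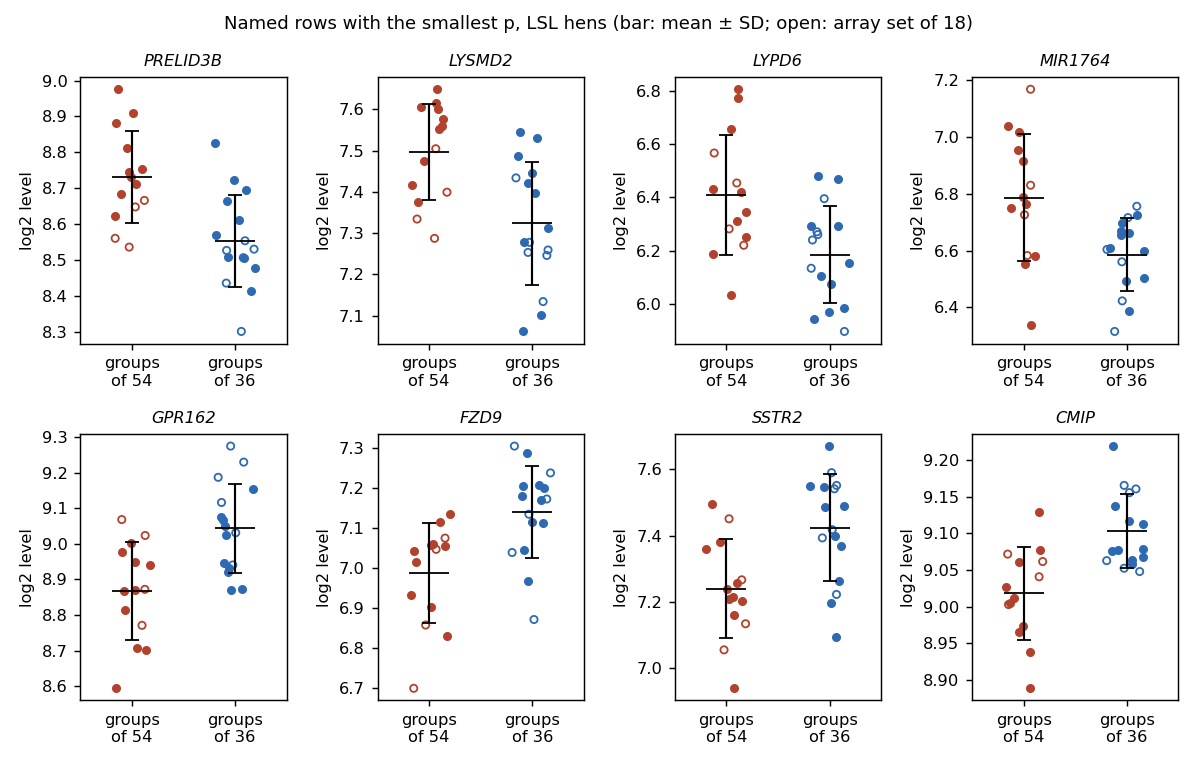
Log2 level of each LSL hen for the 4 higher and the 4 lower rows with 1 gene symbol and the smallest p, with hens from groups of 54 at left and from groups of 36 at right. Bars are mean ± SD (n = 14 and 16) and open points are arrays of the set of 18. In every panel the hens of both group sizes overlap, as for PRELID3B, where groups of 54 ran from 8.54 to 8.98 and groups of 36 from 8.30 to 8.83.

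These 24 rows were taken for their small p in the same comparison, so their values are a description. With 1 hen pair left out at a time, the difference of PRELID3B stayed between 0.15 and 0.21, that of GPR162 between -0.20 and -0.15 and that of SSTR2 between -0.21 and -0.16. Within the larger and the smaller array set the difference was 0.18 and 0.13 for PRELID3B, -0.15 and -0.20 for GPR162, -0.13 and -0.21 for FZD9, and -0.16 and -0.23 for SSTR2. All 24 rows had the same sign in both sets. In 6 of them, however, the log2 difference of 1 set was over 2 times that of the other in size. These were CCNY (0.15 and 0.047), FHL3 (-0.13 and -0.45), DYSF (-0.30 and -0.15), C10orf2 (-0.18 and -0.060), RABL2A (-0.19 and -0.071) and NDUFV1 (-0.24 and -0.11). The smallest p-values over all rows belonged to 5 rows with no gene name here. The first of them, of 1 probe set (15551849), ran from 4.92 through 5.20 to 6.03 in groups of 54 and from 4.61 through 4.91 to 5.27 in groups of 36, a difference of 0.35 (unadjusted p = 0.00017, adjusted p = 0.999 in limma). Of its hens, 3 of 14 in groups of 54 and 13 of 16 in groups of 36 lay below the limit for low values, a log2 level of 5.08. The other 4 rows differed by -0.25, -0.23, 0.37 and 0.31.

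Of the 6 rows with 1 gene symbol and the largest mean differences, 5 had an SD between hens over 0.4 in both group sizes. The other, CCDC27, had SDs of 0.34 in groups of 54 (n = 14) and 0.84 in groups of 36 (n = 16). QDPR, the dihydropteridine reductase that regenerates the cofactor of monoamine synthesis, has 3 rows, and the one with 2 probe sets ran from 2.65 through 6.18 to 7.43 in groups of 54 and from 2.42 through 5.88 to 7.02 in groups of 36. In this row 2 of 14 hens from groups of 54 and 5 of 16 hens from groups of 36 lay below 5.08 and the rest above it. The difference of 0.77 (1.70-fold) had a 95% interval from -0.35 to 1.89 (unadjusted p = 0.17 in limma), and leaving out 1 hen pair at a time gave 0.47 to 1.31. In LB hens the same row was at 7.00 ± 0.29 in groups of 54 (SD, n = 16) and 6.96 ± 0.26 in groups of 36 (SD, n = 14). The other rows of QDPR differed by 0.13 and 0.15 in LSL.

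SNAI2, a zinc finger repressor of transcription, ran from 5.04 through 7.58 to 8.55 in groups of 54 and from 5.48 through 7.22 to 8.72 in groups of 36, a difference of 0.50 (95% interval -0.20 to 1.203). RRBP1, a ribosome-binding protein of the endoplasmic reticulum, ran from 5.05 through 6.66 to 7.39 in groups of 54 and from 5.96 through 6.82 to 8.07 in groups of 36, a difference of -0.46 (95% interval -1.0004 to 0.072). The rows of SNAI2 and RRBP1 hold 1 probe set each, and both group sizes spanned most of the range. CCDC27, a coiled-coil protein, ran from 4.83 through 5.54 to 6.25 in groups of 54 and from 5.11 through 5.61 to 7.77 in groups of 36, and its difference was -0.39 over all LSL hens but 0.042 within the larger array set. VSTM2B, an immunoglobulin domain protein, differed by 0.36 over all LSL hens and by 0.55 and -0.19 within the larger and the smaller array set. The microRNA gene MIR1790, also 1 probe set, ran from 4.15 through 5.10 to 6.09 in groups of 54 and from 4.57 through 5.59 to 6.38 in groups of 36, a difference of -0.44 (unadjusted p = 0.032, adjusted p = 0.999 in limma). In MIR1790 7 of 14 hens from groups of 54 and 3 of 16 from groups of 36 lay below 5.08, so the size of this difference is uncertain.

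The row with the largest difference of any has 1 probe set and no gene name, and was chosen after its values were seen. It ran from 2.97 through 4.56 to 9.25 in groups of 54 and from 3.19 through 6.65 to 9.58 in groups of 36. The difference of -1.51 (2.86-fold lower) had a 95% interval from -2.96 to -0.066 (unadjusted p = 0.041, adjusted p = 0.999 in limma), and in LB hens the difference was 0.67. Of its LSL hens 9 of 14 in groups of 54 and 7 of 16 in groups of 36 lay below 5.08.

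**Figure D3:**
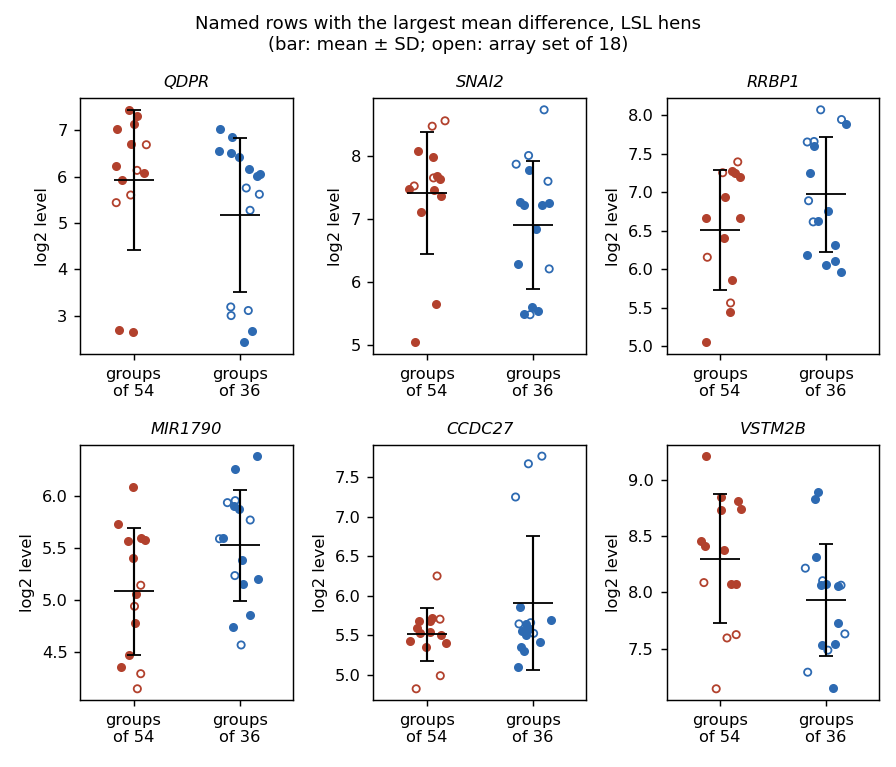
Log2 level of each LSL hen for the 6 rows with 1 gene symbol and the largest mean difference, with hens from groups of 54 at left and from groups of 36 at right, bars for mean ± SD (n = 14 and 16) and open points for arrays of the set of 18. QDPR has a low cluster of 2 hens from groups of 54 and 5 from groups of 36, and the high values of CCDC27 in groups of 36 lie in the smaller array set.

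Gene lists chosen for this tissue and condition were then described. The lists and their members were chosen with earlier results of these data known, so their counts are a description. Many listed genes were not named on the array or lay below the limit for low values, so most lists were tested only in part. The 26 lists held 481 tested genes, of which 0 passed an adjusted p under 0.05 in limma (0% over all 7195 named genes) and 18 had an unadjusted p under 0.05, with 2 higher and 16 lower in groups of 54. Over all 7195 named genes 223 (3.1%) had an unadjusted p under 0.05, 93 of them higher and 130 lower. Whatever their p, 3650 of the 7195 genes were higher and 3545 lower in groups of 54. The 95% interval lay within 1.5-fold for 474 of the 481 genes, and for 469 with hen pairs as a random block. Of 54 list genes named here, 19 turned sign in at least 1 alternative fit, and 18 of the 26 list medians did. List medians lay between -0.094 and 0.021, beside a median of 0.0011 over all named genes.

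Of 21 genes listed for the stress axis the array named 12, and 11 were tested. Of these 11 genes 0 had an unadjusted p under 0.05 (4 higher and 7 lower in groups of 54, median -0.011). The arrays measured posterior cerebrum, so these levels do not describe the hypothalamic and adrenal parts of the axis. CRH, the corticotropin-releasing hormone, ran from 6.45 through 6.68 to 6.95 in groups of 54 and from 6.09 through 6.69 to 7.04 in groups of 36, a difference of -0.013 (95% interval -0.16 to 0.14). NR3C1, the glucocorticoid receptor, ran from 7.84 through 8.08 to 8.501 in groups of 54 and from 7.66 through 8.12 to 8.48 in groups of 36, a difference of -0.031 (95% interval -0.17 to 0.10). The mineralocorticoid receptor gene NR3C2 ran from 9.81 through 10.04 to 10.49 in groups of 54 and from 9.88 through 10.05 to 10.44 in groups of 36, a difference of -0.0018 (95% interval -0.14 to 0.13). For all 3 genes the groups overlapped, and for CRH the hens from groups of 54 lay wholly within the range of the groups of 36. AVP, which encodes the avian vasotocin, differed by -0.011, POMC, the precursor of corticotropin, by 0.070, the vasopressin receptor genes AVPR1A and AVPR2 by 0.077 and 0.11, the receptor gene CRHR2 by -0.030, and HSD11B2, which inactivates glucocorticoids in mammals, by -0.074. MC5R, a melanocortin receptor, was below 5.08 in 6 of 14 hens from groups of 54 and 7 of 16 from groups of 36, and its interval (-0.75 to 0.59) was the only one of the list beyond 1.5-fold.

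Of 24 genes listed as glucocorticoid targets the array named 12. Of these 12 genes, 0 had an unadjusted p under 0.05 (6 higher and 6 lower, median -0.0002). They included TSC22D4, ZBTB32 and MT4, and whether glucocorticoids induce each gene was not tested. SGK1, a kinase of ion transport, ran from 9.72 through 9.99 to 10.16 in groups of 54 and from 9.43 through 9.87 to 10.27 in groups of 36, a difference of 0.071 (95% interval -0.079 to 0.22). GADD45B, a stress-inducible gene, had wide ranges, 8.02 through 9.15 to 9.51 in groups of 54 and 7.99 through 8.64 to 9.41 in groups of 36, and differed by 0.21 (95% interval -0.17 to 0.60). The transcription factor gene KLF15 differed by -0.079, ANGPTL4, an inhibitor of lipoprotein lipase, by -0.063, and SESN1, a sestrin, by 0.077.

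Of 33 immediate early genes listed 18 were tested, and 1 had an unadjusted p under 0.05. BTG2, an antiproliferative gene, ran from 7.07 through 7.31 to 7.65 in groups of 54 and from 6.87 through 7.17 to 7.68 in groups of 36, a difference of 0.16 (unadjusted p = 0.042, adjusted p = 0.999 in limma). The groups overlapped over most of their range. FOS differed by 0.060, EGR1 by 0.068, ARC by 0.0996 and ATF3 by 0.13, whereas MYC differed by -0.092 and KLF6 by -0.074. The list had 9 genes higher and 9 lower in groups of 54 and a median of -0.0050.

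Transmitter systems were described by role. Of 24 genes of monoamine synthesis, transport and reception, 9 were higher and 15 lower in groups of 54 (median -0.025), and HTR1A alone had an unadjusted p under 0.05. HTR1A, an inhibitory serotonin receptor, ran from 6.01 through 6.36 to 6.63 in groups of 54 and from 5.99 through 6.58 to 6.94 in groups of 36, a difference of -0.16 (unadjusted p = 0.047, adjusted p = 0.999 in limma). The groups overlapped, and 2 of 14 hens from groups of 54 lay above the median of the groups of 36. TPH1, a tryptophan hydroxylase of serotonin synthesis, differed by -0.13 and ADRA2B, an adrenergic receptor, by 0.097. Of 29 genes of glutamate and GABA signalling 14 were higher and 15 lower (median -6.1e-05). GRIK3, a kainate receptor subunit, ran from 7.14 through 7.51 to 8.19 in groups of 54 and from 7.44 through 7.76 to 8.01 in groups of 36, a difference of -0.22 (unadjusted p = 0.011, adjusted p = 0.999 in limma). The highest GRIK3 value of all LSL hens was nevertheless in groups of 54. The AMPA receptor subunit GRIA4 differed by 0.097 and the metabotropic glutamate receptor GRM2 by -0.1001.

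Of 43 neuropeptide and receptor genes 18 were higher and 25 lower in groups of 54 (median -0.013), and SSTR2 was the only one at an unadjusted p under 0.05. AGRP, a feeding peptide, differed by -0.10, and GALR2 and NPY2R, receptors for galanin and neuropeptide Y, by 0.11 and 0.15. Of 19 neurotrophin and synaptic plasticity genes 8 were higher and 11 lower (median -0.0086), among them NLGN3, described above, and CAMK2G. CAMK2G, a subunit of the calcium- and calmodulin-dependent kinase of synapses, ran from 9.30 through 9.54 to 9.70 in groups of 54 and from 9.28 through 9.41 to 9.57 in groups of 36, a difference of 0.11 (unadjusted p = 0.023, adjusted p = 0.999 in limma). The growth factor gene BDNF overlapped almost wholly between the groups and differed by -0.038 (95% interval -0.27 to 0.19).

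Cytosolic ribosomal proteins were the list with the most genes at an unadjusted p under 0.05, and also the list with the most genes tested. All 45 listed genes were tested, and 31 were lower and 14 higher in groups of 54 (median -0.021). Over all 7195 named genes 3545 were lower and 3650 higher. The 6 genes at an unadjusted p under 0.05 (RPL23, RPL3, RPL11, RPL15, RPL14 and RPL26L1) were all lower. Over all named genes 223 of 7195 (3.1%) had such a p in limma, and 130 of these were lower. How far the 6 genes varied together between hens was not tested, so they need not be separate observations. RPL3 ran from 9.63 through 9.76 to 10.03 in groups of 54 and from 9.71 through 9.96 to 10.18 in groups of 36, a difference of -0.14 (unadjusted p = 0.010, adjusted p = 0.999 in limma). RPL11 differed by -0.16, RPL14 by -0.14, and RPL15 and RPL26L1 by -0.12 each. The mean level over the list lay between 9.15 and 9.29 in hens from groups of 54 and between 9.12 and 9.45 in hens from groups of 36, so the groups overlapped. The list's median was -0.036 with the array set as a block, -0.040 and -0.049 within the larger and the smaller set, and 0.0043 in LB hens. Of 40 respiratory chain genes 23 were higher and 17 lower (median 0.011), and NDUFV1 and ATP5C1, a subunit of ATP synthase at -0.12, were those at an unadjusted p under 0.05.

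Genes of stress within the cell gave 0 at an unadjusted p under 0.05 among 29 chaperones (17 higher and 12 lower, median 0.017), 26 genes of oxidative stress defence (median 0.0027) and 16 of the hypoxia response (median 0.014). HSF1, the heat shock transcription factor, differed by -0.097 and the small heat shock protein HSPB8 by -0.16. In the other direction the differences of the chaperone list reached 0.12. The clock genes (14 tested, 6 higher and 8 lower, median -0.0028) also had 0 at an unadjusted p under 0.05. So did the genes of thyroid and sex steroid signalling (13 tested, 5 higher and 8 lower, median -0.014). In these lists NPAS2, a clock transcription factor, differed by -0.22 and the progesterone receptor gene PGR by -0.11. The highest differences were 0.092 among the clock genes and 0.093 among the thyroid and sex steroid genes. Of 22 interferon and pattern recognition genes 7 were higher and 15 lower (median -0.022), with 0 at an unadjusted p under 0.05.

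Markers of cell types and regions were compared because the makeup of a tissue sample can differ between hens, and in tissue RNA fewer cells of a type and less RNA per cell cannot be told apart. The lowest of the 26 list medians was that of endothelium and mural cells, at -0.094. Of 27 genes in this list 14 were tested, and 12 of the 14 were lower in groups of 54, beside 3545 of all 7195 named genes. ESAM, an endothelial adhesion molecule, ran from 6.31 through 6.49 to 7.13 in groups of 54 and from 6.39 through 6.69 to 7.14 in groups of 36, a difference of -0.15 (unadjusted p = 0.044, adjusted p = 0.999 in limma). CLDN5, a tight junction protein of the blood-brain barrier, differed by -0.11 and PECAM1 by -0.10, whereas SOX18 and ABCB1 differed by 0.0072 and 0.0019. The mean level over the list lay between 7.09 and 7.45 in groups of 54 and between 7.15 and 7.45 in groups of 36. The median was -0.069 with the array set as a block and 0.0028 in LB hens.

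The other marker lists had medians between -0.055 and 0.021. Of 18 neuronal genes 12 were lower (median -0.033), with STMN3, a regulator of microtubules, at -0.082 (unadjusted p = 0.030, adjusted p = 0.999 in limma). Of 31 oligodendrocyte and myelin genes listed 13 were tested, and 0 had an unadjusted p under 0.05. Of these 13 genes 8 were higher and 5 lower, from -0.088 to 0.18 (median 0.021). BCAS1 was at 0.18, UGT8, an enzyme of myelin lipid synthesis, at 0.14, and MBP, myelin basic protein, at 0.043 (95% interval -0.054 to 0.14). Of 7 erythrocyte genes 5 were lower (median -0.052), and RHAG, a red cell membrane protein at -0.19, had an unadjusted p of 0.037 but was below 5.08 in 7 of 14 hens from groups of 54 and 2 of 16 from groups of 36. The mean level over the erythrocyte list lay between 6.40 and 6.90 in groups of 54 and between 6.47 and 7.01 in groups of 36. CD4 at -0.16 (unadjusted p = 0.040, adjusted p = 0.999 in limma) was the only one of 19 lymphocyte and antigen presentation genes at an unadjusted p under 0.05. Microglia (median -0.022), astrocytes (0.011), meninges (-0.055), choroid plexus (0.0028), striatum (0.012) and pallium (-0.038) had 0 genes at an unadjusted p under 0.05. The part of these markers in the differences of other genes was not tested.

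**Figure D4:**
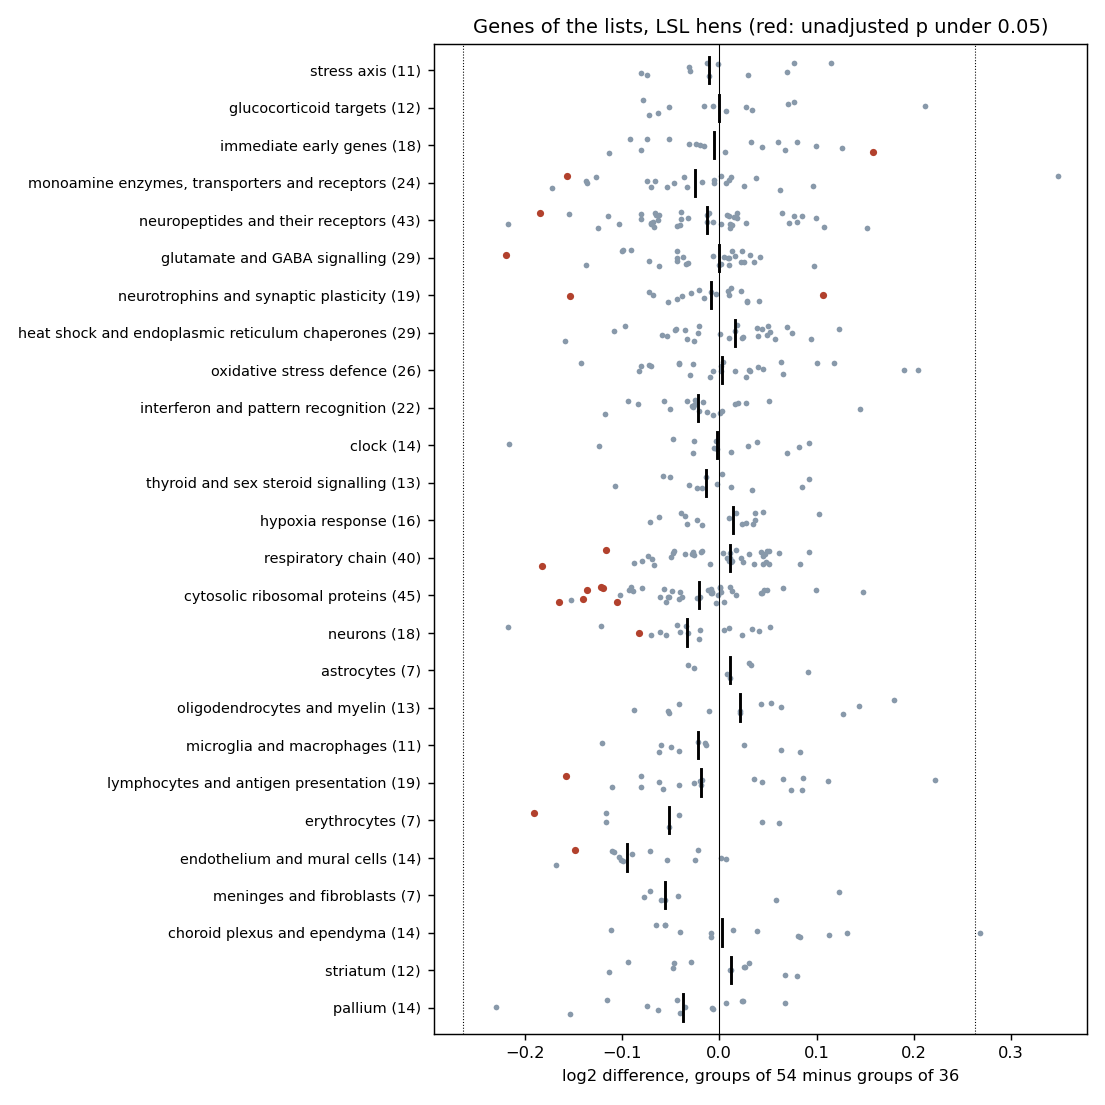
Each point is 1 tested gene of a list, placed at its log2 difference, groups of 54 minus groups of 36, in LSL hens, with red for an unadjusted p under 0.05 and a black bar for the median of the list. Dotted lines mark 1.2-fold and the number of tested genes stands beside each list. Medians lie between -0.094 (endothelium and mural cells) and 0.021 (oligodendrocytes and myelin).

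The spread between hens was compared as well, since a group size could alter how alike hens are. For each row the absolute deviations from the group median were tested with limma, and 0 rows (0%) passed an adjusted p under 0.05 (smallest adjusted p = 0.999, with 520 rows at an unadjusted p under 0.05). The SD was larger in groups of 54 for 8206 rows and larger in groups of 36 for 8110 rows. Of the 520 rows, 223 had more and 297 less spread in groups of 54. With the array set fitted first the SD was larger in groups of 54 for 9054 rows. Deviations were then taken from fitted means, and 924 rows had an unadjusted p under 0.05. Of these, 587 had more and 337 less spread in groups of 54, and 0 passed (smallest adjusted p = 0.077 in limma). Deviations from group means without the set gave 895 such rows, 377 with more and 518 with less spread (smallest adjusted p = 0.48 in limma). The rise from 520 to 924 rows thus goes with a change of centre as well as with the array set. PROX1, a homeobox gene of neuronal differentiation, ran from 5.76 to 6.50 in groups of 54 and from 6.00 to 6.35 in groups of 36, with SDs of 0.24 (n = 14) and 0.079 (n = 16). IDH2, a mitochondrial isocitrate dehydrogenase, ran from 9.60 to 9.84 in groups of 54 and from 9.28 to 9.92 in groups of 36, with SDs of 0.064 (n = 14) and 0.21 (n = 16). Among the named rows with the smallest p for spread, PROX1 and RNF5 (RNF185 in the array annotation) thus varied more in groups of 54, and IDH2, SOX14 and MIR1618 less. The SDs in groups of 54 and groups of 36 were 0.18 and 0.068 for RNF5, 0.13 and 0.28 for SOX14, and 0.067 and 0.24 for MIR1618.

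LB hens give the same contrast in other birds. In LB 0 rows passed (smallest adjusted p = 0.21 in limma) and 1223 (7.5%) had an unadjusted p under 0.05, beside 528 (3.24%) in LSL. Those counts were not tested against each other. The interaction of group size with line, which compares the LSL and LB differences row by row, called 0 rows in limma (0%, smallest adjusted p = 0.78). It had 802 rows (4.9%) at an unadjusted p under 0.05. Of the 528 LSL rows at an unadjusted p under 0.05, 303 (57.4%) had the same sign in LB, beside 8636 of all 16317 rows (52.9%). Of the 24 named rows 18 had the same sign in LB, and 0 of these had an unadjusted p under 0.05 in LB. Of the other 6, MIR1764 and RABL2A had an unadjusted p in LB of 0.017 and 0.0050 with the opposite sign. PRELID3B differed by 0.18 in LSL and 0.047 in LB, GPR162 by -0.17 in LSL and -0.028 in LB, and SSTR2 by -0.18 in LSL and -0.034 in LB.

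Several named rows lay on opposite sides of 0 in the lines. Among them RABL2A, MIR1764, GINS1, FKBP9 and H2AFJ are the named rows with the smallest p for interaction. A contrast between the lines is what these were chosen for, so their values are a description. RABL2A differed by -0.16 in LSL and 0.17 in LB, an interaction of -0.33 (standard error 0.079, adjusted p = 0.78 in limma). MIR1764 differed by 0.20 in LSL and -0.17 in LB, and GINS1, a subunit of the DNA replication complex GINS, by 0.10 in LSL and -0.27 in LB. For FKBP9, a prolyl isomerase of the endoplasmic reticulum, the values were -0.028 in LSL and 0.27 in LB, and for the histone gene H2AFJ -0.13 in LSL and 0.34 in LB. LYPD6 differed by 0.22 in LSL and -0.17 in LB. None of these interactions passed the adjusted threshold.

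**Figure D5:**
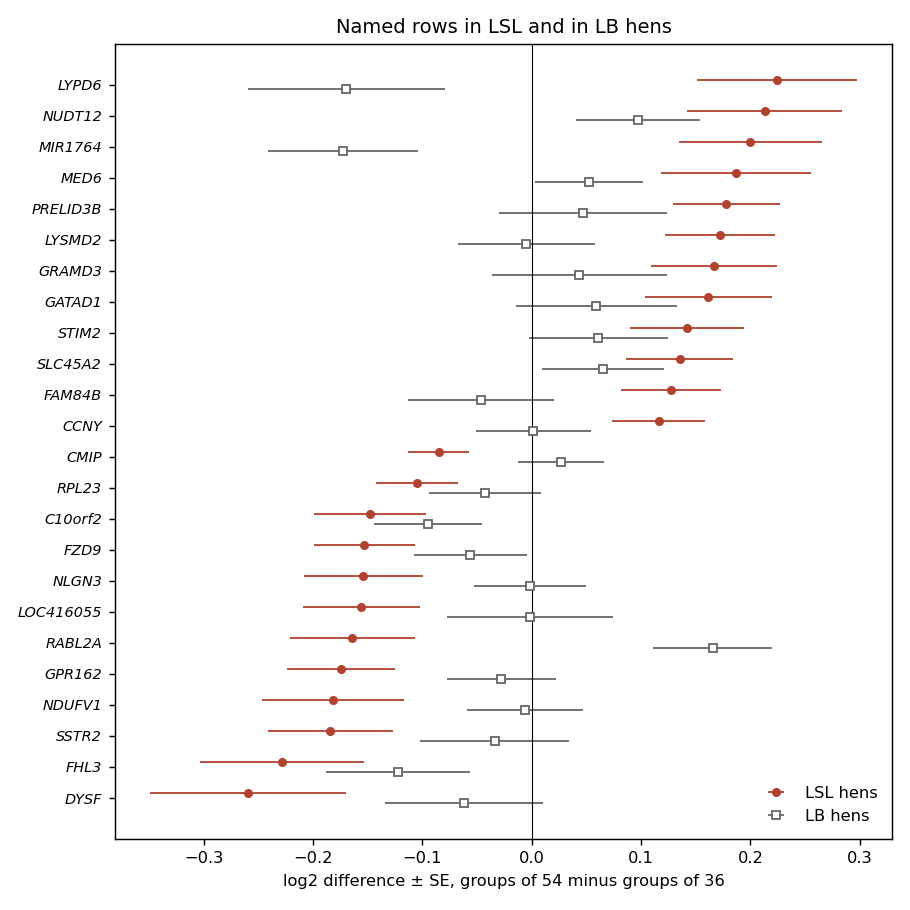
Log2 difference ± standard error, groups of 54 minus groups of 36, for the 24 named rows with the smallest p in LSL, with filled circles for LSL hens (n = 14 and 16) and open squares for LB hens (n = 16 and 14). The rows were chosen on the LSL values, and 18 of 24 have the same sign in LB, where most differences are nearer to 0, as for PRELID3B at 0.047.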

How the data were processed

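Cerebrum RNA of 60 hens was hybridised to 1 array each. The authors' deposited log2 values, RMA-normalised by them from the scans, fill 20399 rows, each listing 1 or more probe sets (median 7, highest 129 over tested rows), and a second deposited table of 20396 rows held the same values. The scans were not read here. The genome build of the array annotation is not given in the sources used here. Columns were matched to hens by hen number. The empty row and 2 rows named as controls were left out, and rows whose mean over the arrays fell under the 20th percentile of row means (log2 5.08) were set aside, so that 16317 were tested, of which 1 had a constant value. The array annotation gave 1 symbol to 7453 tested rows, several to 81 and none to 8783. Older symbols were updated through the GRCg7b gene table (441 symbols). A gene's list value is the mean of its tested rows.

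LSL hens from groups of 54 and of 36 were compared by limma (version 3.58.1, R 4.3.3; linear model and moderated statistic, two-sided), with Benjamini-Hochberg adjustment at 0.05 over all tested rows, or over the 7195 named genes for gene values. The main fit was tested on simulated data with independent hens. That simulation had neither hen pairs nor array sets, so it says nothing about their effect. The interaction was fitted on all 60 hens, and spread as absolute deviations from group medians. Compartments gave more than 1 sampled hen each, and the labels do not name them. The p-values therefore judge mean differences against the spread between hens, with hens taken as independent. Array sets were found from the values. Named rows are, by rule, the 12 higher and 12 lower 1-symbol rows with the smallest p, the 5 rows with the smallest p, the 6 1-symbol rows with the largest difference, up to 2 genes per direction and list, and the 5 named rows with the smallest p for interaction and for spread; central members of a list were added. The members and lists were chosen with earlier results of these data known. Alternatives were hen pairs as a random block, pair means, array sets, filters, array weights, the methods' t-test, centring, and leaving out each hen pair.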

Additional observations from a re-analysis of the deposited data

How the results depend on the processing

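The count of 0 rows past the adjusted threshold held in all 13 alternative fits of group size and in all 15 fits that left out a hen pair, and in the 3 alternatives each for the interaction and for spread. The number of rows at an unadjusted p under 0.05, 528 as reported, was 183 with hen pairs as a random block (limma's consensus correlation 0.34, or 0.15 with the array set), 260 on pair means, 804 with the array set as a block, 1062 within the larger array set, 854 within the smaller (chosen after seeing the data) and 908 with array weights. Leaving out 1 hen pair gave 422 to 1001 rows, with 829 without hens 13 and 14, 1001 without hens 21 and 22, and 859 without hens 33 and 34. The cause was not tested. No paired analysis was possible because hen numbers are not shared between the groups. Array sets were found from the values, so a p with that block is optimistic.

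For single rows, the direction held in 392 values from alternatives and 654 with a hen pair left out. The sign turned for CCDC27 within the larger array set (0.042), VSTM2B within the smaller (-0.19), FKBP9 within the smaller (0.0081) and without hens 7 and 8 (0.011), and RNF5 within the larger (0.059). For RNF5, at -0.0061 over all LSL hens, leaving out a pair gave -0.048 to 0.025, with turned signs of 0.0021, 0.0088, 0.025, 0.015 and 0.0037. With a pair left out FKBP9 lay between -0.044 and 0.011. The 54 list genes named in the text kept their direction in 460 values from alternatives and 768 with a hen pair left out, and 35 of them in every fit. Within the larger array set the sign turned for HSD11B2 (0.080), NR3C2 (0.014), AVP (0.011), MC5R (0.015), EGR1 (-0.052), ARC (-0.104), BDNF (0.077) and ABCB1 (-0.112). Within the smaller set it turned for CRH (0.140), NR3C1 (0.075), NR3C2 (0.057), GADD45B (-0.101), SESN1 (-0.083), FOS (-0.013), GRM2 (0.021), GALR2 (-0.00061), NPAS2 (0.032), ESAM (0.035), SOX18 (-0.133) and MBP (-0.018). With the array set as a block, with or without hen pairs, it turned for NR3C2 (0.028), SOX18 (-0.0031) and ABCB1 (-0.0052). Leaving out 1 hen pair gave -0.11 to 0.0048 for HSD11B2, -0.068 to 0.023 for CRH, -0.063 to 0.00025 for NR3C1, -0.060 to 0.037 for NR3C2, -0.052 to 0.036 for AVP, -0.23 to 0.077 for MC5R, -0.029 to 0.13 for FOS, -0.010 to 0.13 for EGR1, -0.10 to 0.057 for BDNF, -0.023 to 0.037 for SOX18 and -0.084 to 0.091 for ABCB1.

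All list medians moved by less than 1 SD between hens, but this SD exceeds most medians and 18 of 26 changed sign in at least 1 alternative, 7 within the larger array set, 13 within the smaller and 3 with the set as a block. With that block the respiratory chain was at -0.0019, the immediate early genes at 0.0067 and striatum at -0.014. Monoamine genes were at 0.040 within the smaller set, and lymphocyte genes at 0.041 within the larger.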
